A study of Mus musculus with 2 samples.

Results

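Interferon-stimulated genes (ISGs) other than the interferon-induced GTPases were followed in the ileal epithelium of WT and Tipe0-/- mice. The set was a list of 41 symbols, and all 41 had a row in the deposited matrices of 27998 genes. It was divided from textbook knowledge into 21 type I-like genes, which respond most strongly to type I and type III interferons, 6 gamma-like genes, which are known mainly as targets of interferon gamma, and 14 shared genes induced by both kinds. Type I interferons bind Ifnar1 and Ifnar2, type III interferons bind Ifnlr1 and Il10rb and act mostly on epithelia such as that of the gut, and both lead to a complex holding Stat2 and Irf9 that binds the interferon-stimulated response element (ISRE). Interferon gamma binds Ifngr1 and Ifngr2 and acts mainly through the gamma-activated site (GAS). In the intestine this system is known to protect epithelial cells from enteric viruses and to adjust antigen presentation.

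The study asked how loss of TIPE0, the protein of Tnfaip8, changes the intestinal epithelium, and used sc-RNASeq in droplets (Chromium System, 3′ chemistry) on undamaged ileum. WT and Tipe0-/- (TNFAIP8-/- in the labels) mice were on the C57BL/6 background, 8 weeks old and untreated. No driver or conditional allele is named, and the genotype labels describe the whole animal. The cells of several mice were pooled before sequencing into 1 library per genotype. The labels name collagenase with dispase for the digestion, whereas the methods name DNase with dispase. Both libraries are labelled enterocytes of the ileum, but by their markers they also held goblet, Paneth, tuft, enteroendocrine, stem, cycling and lymphocyte-like cells.

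The WT library held 3402 cells and 38127808 unique molecular identifiers (UMIs, 1 per captured mRNA molecule) and the Tipe0-/- library 2006 cells and 23897126 UMIs, with medians of 7760 and 7307.5 UMIs per cell. Only 9 barcodes occurred in both libraries. Tnfaip8, the targeted gene, was counted 372 times in WT and 57 times in Tipe0-/-. Nnt, a mitochondrial gene known to be disrupted in 1 substrain of C57BL/6, stood at 12.2 counts per 1000000 UMIs of the library (CPM) in WT and 41.1 CPM in Tipe0-/-, so substrain and genotype cannot be told apart. Because each genotype was 1 library, no test between genotypes was possible. Values are CPM with exact 95% Poisson intervals, and ratios are log2 of Tipe0-/- over WT (0.5 added to each sum) with an exact binomial interval for how their counts divide. All intervals cover counting error and not the spread between mice. Taken over the 11665 genes that reached 50 UMIs, the median log2 ratio was 0.15. A gene was called lower or higher where its log2 ratio lay 1.5-fold or more from that median. Each molecule is counted once at its 3′ end, so CPM does not depend on gene length.

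Before the values, promoter stretches that match the ISRE or the GAS are shown for 7 members described below, chosen to include all 3 signatures and both elements. Of the 41 genes, 35 had a RefSeq promoter window on GRCm38.p6, which spans 250 bases before to 50 after a start. The ISRE core searched was GAAANNGAAA and the GAS was TTCNNNGAA, both on either strand, and the 2 motifs may overlap each other. Each stretch runs 5′ to 3′ on the strand of its gene, and capitals mark the matched letters.
Isg15 (chr4:156200871-156200900, minus strand): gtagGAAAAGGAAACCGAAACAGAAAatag
Ifit1 (chr19:34640785-34640814, plus strand): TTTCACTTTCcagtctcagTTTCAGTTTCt
Bst2 (chr8:71537583-71537612, minus strand): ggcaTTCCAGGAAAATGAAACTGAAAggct
Socs1 (chr16:10785597-10785626, minus strand): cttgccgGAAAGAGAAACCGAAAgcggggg
Ifitm2 (chr7:140955988-140956017, minus strand): ccaccaacagGAAAAGGAAAttgctagaga
Irf1 (chr11:53769914-53769943, plus strand): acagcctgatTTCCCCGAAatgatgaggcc
Irf8 (chr8:120736186-120736215, plus strand): tTTCTCGGAAagagagcgcTTCAGAGAAgg

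Isg15 carried 3 overlapping ISRE cores, from 78 to 57 bases before its start. The capitals of Bst2 join 1 GAS to 2 overlapping ISRE cores. Ifit1 had 2 separate cores, here read on the opposite strand, and Irf1 had a single GAS. Over the type I-like genes, 10 of 21 windows (47.6%) held an ISRE core, against 3 of 9 gamma-like windows (33.3%), 2 of 15 shared windows (13.3%) and 3.44% of all 32851 windows. A GAS occurred in 23.8% of type I-like, 22.2% of gamma-like and 26.7% of shared windows, and in 8.30% of all windows. The 2 cores that the Ifitm3 window held lay after its start, whereas the core of Ifitm2 lay before it. A match describes letters and not a bound site.

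Across all cells, 27 of the 40 members with at least 50 UMIs were lower in the Tipe0-/- library and 0 were higher, where 6.9% of all genes were called lower and 4.23% higher. At 2-fold, 19 were lower and 0 higher, against 3.22% and 0.892% of all genes. Their median log2 ratio was -0.75, and 39 of them lay below the median of all genes. Of the type I-like genes, 18 of 21 were lower with a median of -1.10. Of the gamma-like genes, 2 of 5 were lower with a median of -0.41, and of the shared genes 7 of 14 with a median of -0.48. The difference between these medians was not tested, and the gamma-like median rests on 5 genes. A further 22 interferon gamma targets outside the list, described below, had a median of -1.13. Cxcl10, a chemokine that draws T cells, was the member below the UMI minimum. It had 37 UMIs in 13 WT cells and 4 UMIs in 4 Tipe0-/- cells, and 91.9% of the WT UMIs came from the 10 richest cells.

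**Figure D1:**
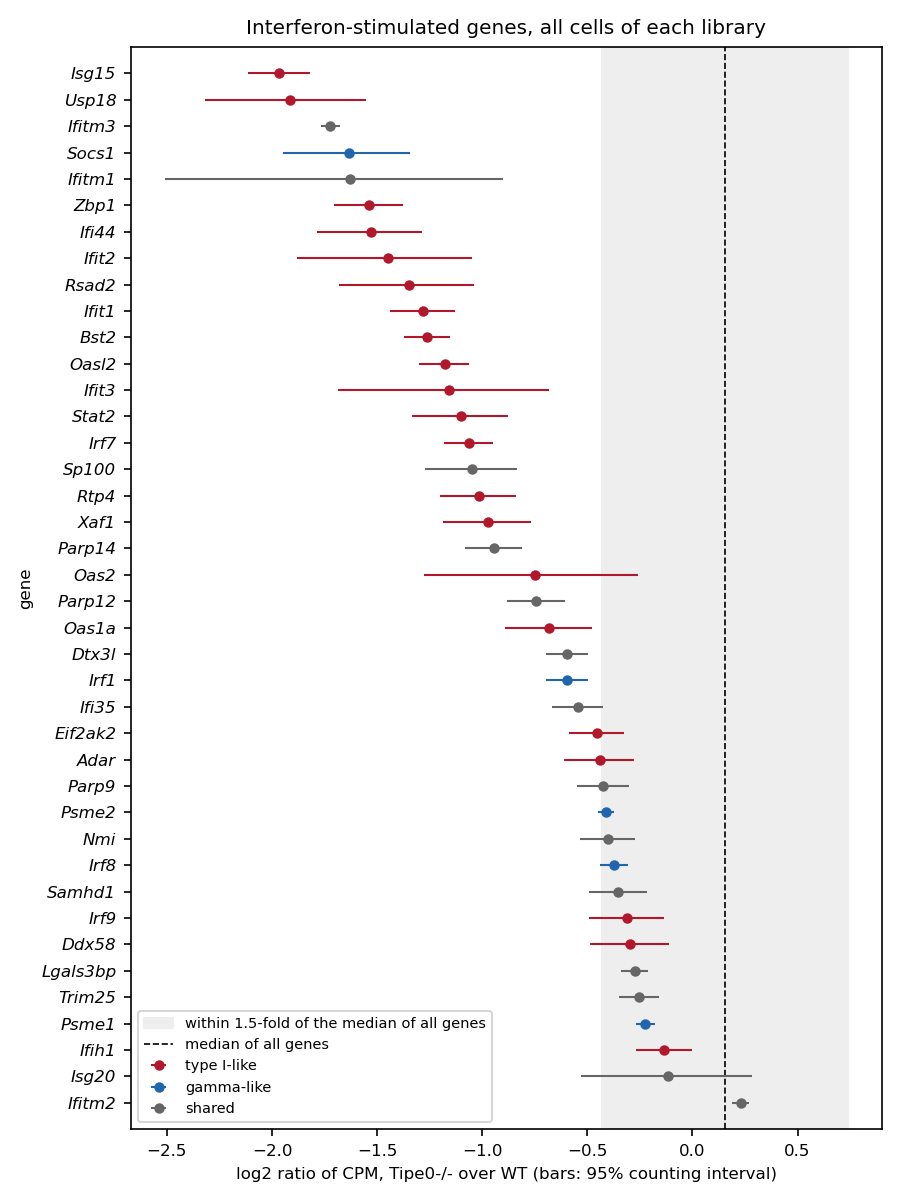
The log2 ratio of CPM (Tipe0-/- over WT) is plotted for the 40 members with at least 50 UMIs, coloured by signature, with 95% counting intervals. The dashed line is the median of all genes at 0.15, the grey band holds values within 1.5-fold of it, and Ifitm2 is the single member to the right of the line.

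The membrane proteins that block virus entry or release gave the sharpest contrast between relatives. Ifitm2 and Ifitm3 are closely related genes of a cluster on mouse chromosome 7 (chr7:140954837-140955987 and chr7:141009586-141010770 on GRCm38) whose products restrict viral fusion in endosomes, and some reads could be divided between them. Ifitm3 (ENSMUSG00000025492), the most abundant member in WT, stood at 627 CPM (619 to 635) in the WT library and 190.1 CPM (185 to 196) in the Tipe0-/- library, a log2 ratio of -1.72 (-1.77 to -1.68). Ifitm2 (ENSMUSG00000060591) went the other way, at 310.4 CPM (305 to 316) in the WT library and 364 CPM (356 to 372) in the Tipe0-/- library and a log2 ratio of 0.23 (0.19 to 0.27), which is within 1.5-fold of the median of all genes. Ifitm2 was thus below Ifitm3 in WT and above it in Tipe0-/-. With cell classes weighted to the same makeup in both libraries, the log2 ratio of Ifitm2 was 0.08 and the median of all genes 0.12. In the stem-like cells described below, where Ifitm2 was highest, its log2 ratio was -0.12. Ifitm1, the family member found mostly at the cell surface, had 2.26 and 0.711 CPM and a log2 ratio of -1.63 (-2.51 to -0.90). It rested on 86 UMIs in 23 WT cells and 17 UMIs in 8 Tipe0-/- cells, and 84.9% of the WT UMIs sat in the 10 richest cells. Bst2, the tether that holds budding viruses at the membrane, had 88.8 CPM in WT and 37.03 CPM in Tipe0-/-, with a log2 ratio of -1.26 (-1.37 to -1.16).

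Of the 10 antiviral effectors, 8 were lower. Isg15 (ENSMUSG00000035692, chr4:156199424-156200818), a ubiquitin-like protein that is attached to other proteins during the response, stood at 72.1 CPM (69.4 to 74.8) in the WT library and 18.5 CPM (16.8 to 20.3) in the Tipe0-/- library, a log2 ratio of -1.96 (-2.11 to -1.82) and the lowest among the 40. The Ifit genes lie together on mouse chromosome 19 and encode proteins that bind foreign RNA. Ifit1 had 44.1 and 18.1 CPM in WT and Tipe0-/-, with a log2 ratio of -1.28 (-1.44 to -1.13). Ifit2 had 7.003 and 2.55 CPM and a log2 ratio of -1.45 (-1.88 to -1.05). Ifit3 had 4.14 and 1.84 CPM and a log2 ratio of -1.16 (-1.69 to -0.68). All 3 were lower, although reads of Ifit3 may be divided with its near-identical copy Ifit3b, which had 52 and 7 UMIs. The 10 richest cells held 19.5% of the WT and 49.2% of the Tipe0-/- UMIs of Ifit2, and 19.0% and 47.7% of those of Ifit3. Rsad2 (viperin), which makes an antiviral nucleotide, had 10.9 and 4.27 CPM and a log2 ratio of -1.35 (-1.68 to -1.04), with 33.7% and 55.9% of its UMIs in the 10 richest cells. Ifi44, an ISG of the cytosol, had 19.6 and 6.78 CPM and a log2 ratio of -1.53 (-1.79 to -1.29). The next pair were lower by about the same ratio. Rtp4, a chaperone of membrane receptors with antiviral activity, had 28.1 and 13.9 CPM and a log2 ratio of -1.02 (-1.20 to -0.84). Xaf1, known as an antagonist of the apoptosis inhibitor XIAP, had 20.5 and 10.4 CPM and a log2 ratio of -0.98 (-1.19 to -0.77). The remaining effectors, both enzymes, stayed within 1.5-fold. Samhd1, which degrades deoxynucleotides, had 34.1 and 26.7 CPM and a log2 ratio of -0.35 (-0.49 to -0.22). Isg20, an exonuclease, had 3.72 and 3.43 CPM and a log2 ratio of -0.11 (-0.53 to 0.28), an interval that includes the median of all genes.

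Of the 5 transcription factors, 3 were lower. Stat2, a subunit of the complex that binds the ISRE, had 18.4 and 8.58 CPM in WT and Tipe0-/-, with a log2 ratio of -1.10 (-1.33 to -0.88). Its DNA-binding partner Irf9 had 19.9 and 15.99 CPM and a log2 ratio of -0.31 (-0.49 to -0.13), within 1.5-fold of the median of all genes. Irf7, which amplifies the production of type I interferon, had 69.1 and 33.1 CPM and a log2 ratio of -1.06 (-1.18 to -0.95). Of the factors best known downstream of interferon gamma, Irf1 was past the threshold and Irf8 inside it. Irf1 had 72.4 and 47.9 CPM and a log2 ratio of -0.60 (-0.70 to -0.50). Irf8, better known in myeloid and B cells but present here in every epithelial class, had 149 and 115 CPM and a log2 ratio of -0.37 (-0.44 to -0.31).

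Both feedback inhibitors were among the lowest members. Usp18, which removes Isg15 from proteins and blocks the type I receptor, had 10.8 and 2.85 CPM and a log2 ratio of -1.92 (-2.32 to -1.55). Socs1, which inhibits the Jak kinases, had 14.3 and 4.603 CPM and a log2 ratio of -1.63 (-1.95 to -1.34), the lowest among the gamma-like genes.

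Among the sensors of RNA and DNA, 6 of 9 were lower, and the cytosolic receptors of viral RNA, Ddx58 and Ifih1, were not among them. Zbp1, which senses Z-form nucleic acid and can start necroptosis, had 45.7 and 15.7 CPM in WT and Tipe0-/-, with a log2 ratio of -1.54 (-1.70 to -1.38). Oasl2, related to the oligoadenylate synthetases, had 69.98 and 30.9 CPM and a log2 ratio of -1.18 (-1.30 to -1.06). The synthetase Oas2 had 3.25 and 1.92 CPM and a log2 ratio of -0.75 (-1.28 to -0.26). Oas1a, another synthetase whose reads may be divided with the close copy Oas1g (285 and 101 UMIs), had 17.8 and 11.1 CPM and a log2 ratio of -0.68 (-0.89 to -0.48). The next pair, like Oas2, were called lower with intervals that reached inside the 1.5-fold band. Eif2ak2 (PKR), a kinase that halts translation on double-stranded RNA, had 40.9 and 29.8 CPM and a log2 ratio of -0.46 (-0.59 to -0.33). Adar, which edits adenosine to inosine in double-stranded RNA, had 24.97 and 18.4 CPM and a log2 ratio of -0.44 (-0.61 to -0.28). The remaining sensors were all within 1.5-fold. Ddx58 (RIG-I) had 17.97 and 14.6 CPM and a log2 ratio of -0.30 (-0.49 to -0.11). Ifih1 (MDA5) had 32.99 and 30.05 CPM and a log2 ratio of -0.13 (-0.27 to 0.00). Trim25, the ubiquitin ligase that acts on RIG-I, had 69.6 and 58.4 CPM and a log2 ratio of -0.25 (-0.35 to -0.16).

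Of the PARP enzymes and their partner, 3 of 4 were lower. Parp14 had 46.4 and 24.1 CPM in WT and Tipe0-/-, with a log2 ratio of -0.94 (-1.08 to -0.81). Parp12 had 41.5 and 24.7 CPM and a log2 ratio of -0.74 (-0.88 to -0.61). Parp9 and its partner, the ubiquitin ligase Dtx3l, lie head to head on mouse chromosome 16 with annotated spans that overlap at their starts. Dtx3l had 73.3 and 48.4 CPM and a log2 ratio of -0.60 (-0.70 to -0.50), and Parp9, just inside the threshold, had 45.5 and 33.9 CPM and a log2 ratio of -0.42 (-0.55 to -0.30). Among scaffold and nuclear body proteins, Sp100, a component of PML bodies, had 19.5 and 9.42 CPM and a log2 ratio of -1.05 (-1.27 to -0.83). Ifi35 had 48.2 and 33.02 CPM and a log2 ratio of -0.55 (-0.67 to -0.42), an interval that just reached inside the 1.5-fold band. The binding partner of Ifi35, Nmi, was within 1.5-fold, with 39.8 and 30.1 CPM and a log2 ratio of -0.40 (-0.53 to -0.27).

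The abundant members with roles in antigen processing and secretion had small ratios. Psme1 and Psme2 encode the 2 subunits of the proteasome activator PA28. Psme1 had 307 and 263 CPM and a log2 ratio of -0.22 (-0.27 to -0.18), and Psme2 had 445 and 335 CPM and a log2 ratio of -0.41 (-0.45 to -0.37). Lgals3bp, a secreted glycoprotein that binds galectins, had 161 and 133 CPM and a log2 ratio of -0.28 (-0.34 to -0.21). All 3 stayed within 1.5-fold of the median of all genes, and all 3 lay below it beyond counting error.

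To follow the members through the epithelium, all cells were clustered jointly, with the members, the pathway genes and the genes of the study's genotype comparison left out of the variable genes. Of 15 clusters, 13 were named from markers and are called "like" a type for that reason. They gave enterocyte-like (953 WT and 466 Tipe0-/- cells), goblet-like (731 and 508), Paneth-like (284 and 139), tuft-like (155 and 52), enteroendocrine-like (32 and 19), stem-like (299 and 251), cycling-like (362 and 219) and lymphocyte-like (92 and 16) classes. The remaining clusters, led by Dtl, Ccne2 and Cdc6 and by Akr1c19 and Gsdmc3, were left unnamed. Of the 4 enterocyte-like clusters, the one led by Slc40a1 rested on 3 markers, none of them among its 10 leading genes. That cluster held 334 WT and 170 Tipe0-/- cells and scored 0.06 on the enterocyte markers. CPM by class is per 1000000 UMIs of that class in that library, and calls are made against the median of all genes in the class.

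In WT, 25 of the 41 members had their highest CPM in enterocyte-like cells, and 25 did so in Tipe0-/-. Isg15 stood at 192 and 67.1 CPM there in WT and Tipe0-/-, against 55.4 and 15.1 CPM in goblet-like, 26.99 and 8.41 CPM in stem-like and 6.54 and 1.34 CPM in Paneth-like cells. Irf7 had 197 and 117 CPM in enterocyte-like and 22.96 and 6.81 CPM in stem-like cells. Ifit1 was steeper still, with 159.9 and 91.3 CPM in enterocyte-like and 3.22 and 0.4003 CPM in stem-like cells. These genes therefore had their high levels in the absorptive class in both genotypes. Within that class, Isg15 was highest in the cluster led by Apoa4 (425 and 129 CPM) and lower in the cluster led by Slc40a1 (133 and 25.7 CPM). Goblet-like cells showed the same kind of spread. The cluster led by Ido1, Zg16 and Frmd3 had 220.0 and 84.8 CPM of Isg15 and the cluster led by Spdef 34.8 and 9.79 CPM. The first of these clusters scored 1.45 on the goblet markers and, in second place, 0.80 on the enterocyte markers. Whether it held mixed cells or doublets was not tested.

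The Ifitm genes had the opposite layout. Ifitm3 stood at 2119 and 568 CPM in stem-like cells and 77.9 and 20.7 CPM in enterocyte-like cells in WT and Tipe0-/-. Ifitm2 had 698 and 641 CPM in stem-like and 66.05 and 88.02 CPM in enterocyte-like cells. Both were thus highest in stem-like cells in both libraries, and of the pair Ifitm3 was called lower in all 10 classes and unnamed clusters, with log2 ratios from -3.35 in enteroendocrine-like to -1.31 in Paneth-like cells. Ifitm2 was called lower or higher in 0 of the 10. In tuft-like cells Ifitm2 had 329 and 471 CPM, a log2 ratio of 0.52 (0.35 to 0.69), while Ifitm3 had 516 and 182 CPM, a log2 ratio of -1.50 (-1.74 to -1.29). Bst2 was spread evenly by comparison, with 113 and 45.9 CPM in goblet-like, 102 and 42.4 CPM in enterocyte-like and 95.5 and 38.03 CPM in stem-like cells, and it was called lower in the 8 classes and clusters where it reached 50 UMIs.

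**Figure D2:**
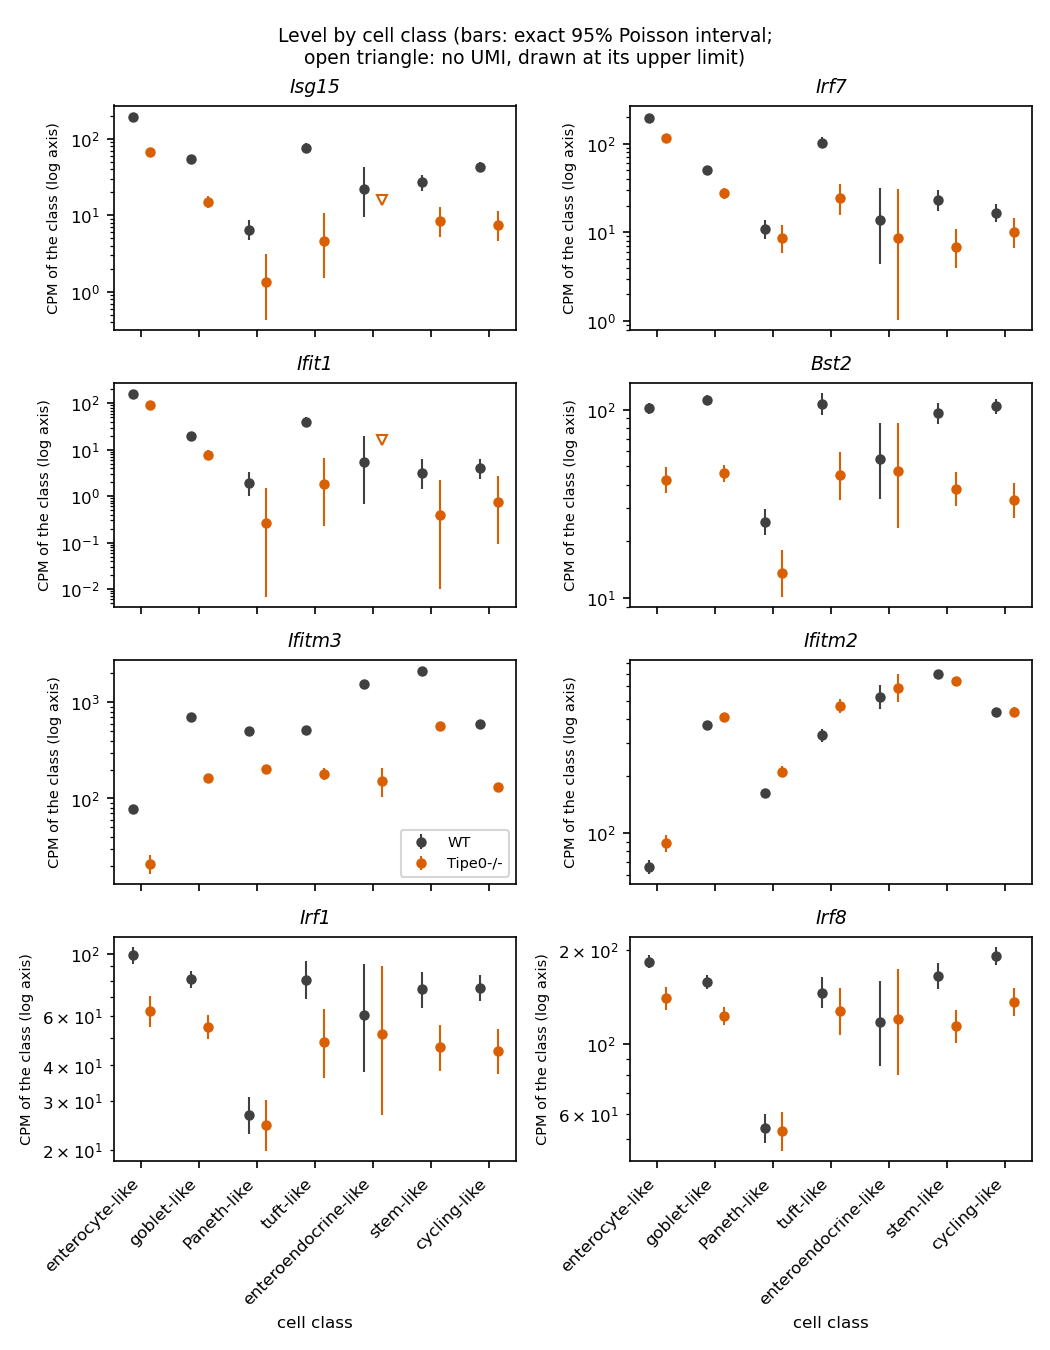
CPM by class (log axis) of 8 members is shown in the WT and Tipe0-/- libraries, with exact 95% Poisson intervals as bars and open triangles at the upper limit where no UMI was counted. Isg15, Irf7 and Ifit1 peak in enterocyte-like cells, Ifitm3 and Ifitm2 in stem-like cells, and the WT and Tipe0-/- points stand well apart for Ifitm3 and lie close together for Ifitm2.

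Enterocyte-like and goblet-like cells, the largest classes, each held more than 20 members called lower. In enterocyte-like cells 25 of 38 were lower and 0 higher, where 6.2% and 6.72% of all genes were. Zbp1 had 128 and 46.9 CPM there in WT and Tipe0-/-, a log2 ratio of -1.44 (-1.68 to -1.22), and Socs1 had 23.2 and 8.16 CPM, a log2 ratio of -1.49 (-2.09 to -0.96). Psme2 also passed the threshold in this class, with 489 and 349 CPM and a log2 ratio of -0.49 (-0.58 to -0.40). Its interval reached inside the 1.5-fold band of the class. Ratios differed between the clusters of this class. Oasl2 had a log2 ratio of -0.44 in the cluster led by Slc6a19 and -1.57 in the one led by Slc40a1, and Ifit1 had -0.66 and -1.98. Bst2 differed in the other direction, at -1.47 and -1.15. In goblet-like cells 23 of 38 were lower and 0 higher, against 4.45% and 3.87% of all genes. Most cells of this class (470 in WT and 347 in Tipe0-/-) lay in the cluster led by Spdef, which scored 0.78 on the goblet markers. The cluster led by Sval1 (197 and 126 cells) scored highest on them, at 2.03. In that cluster Isg15 and Ifitm3 had log2 ratios of -1.60 and -3.20, but Ifit1 and Rtp4 had 0.21 and 0.29. Usp18 had 9.61 and 1.98 CPM in goblet-like cells, a log2 ratio of -2.24 (-3.17 to -1.48), and Rsad2 9.61 and 1.32 CPM, a log2 ratio of -2.80 (-3.97 to -1.92). Much of this Rsad2 lay in the cluster led by Ido1, Zg16 and Frmd3, which also scored on enterocyte markers. That cluster held 60 WT and 5 Tipe0-/- UMIs of Rsad2 (89.8 and 14.6 CPM). The median log2 ratio of the members was -0.56 in enterocyte-like and -0.61 in goblet-like cells.

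Stem-like and cycling-like cells gave like counts from lower levels of the type I-like genes. In stem-like cells 21 of 29 were lower and 0 higher, against 4.59% and 4.61% of all genes, with a median of -0.75. In cycling-like cells 21 of 32 were lower and 0 higher, against 4.01% and 4.68%, with a median of -0.74. Oasl2 had 51.2 and 15.6 CPM in stem-like cells of WT and Tipe0-/-, a log2 ratio of -1.70 (-2.27 to -1.18). Irf7 had a log2 ratio of -1.73 (-2.63 to -0.95) there. Isg15 in cycling-like cells had 43.4 and 7.49 CPM and a log2 ratio of -2.50 (-3.28 to -1.87), and Parp12 had 25.2 and 7.12 CPM and a log2 ratio of -1.79 (-2.61 to -1.12).

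Tuft-like cells had the lowest median of any class, -1.0, with 23 of 33 lower and 0 higher against 8.88% and 6.63% of all genes. Isg15 had 76.7 and 4.66 CPM there in WT and Tipe0-/- (157 and 5 UMIs), a log2 ratio of -3.91 (-5.68 to -2.79). Ifit1 had 83 and 2 UMIs, and Ifi44 had 26.9 and 1.86 CPM, a log2 ratio of -3.54 (-6.93 to -1.93). Irf7 had 103 and 24.2 CPM, a log2 ratio of -2.07 (-2.74 to -1.50). Only 52 Tipe0-/- cells stood behind these values. Summed transcripts of 7 T cell genes were also lower in the same class, at 99.2 CPM in WT and 1.86 CPM in Tipe0-/-. Without the cells that held any of those transcripts, Isg15 was at 71.4 and 4.84 CPM over the remaining 137 and 50 tuft-like cells, and Irf7 at 102 and 25.2 CPM. The median log2 ratio of the members was then -1.04.

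Paneth-like cells had the lowest WT CPM of 28 members, and log2 ratios there were read against a class median of 0.47. These cells had medians of 20960.5 UMIs in WT and 26111 in Tipe0-/-, against 7760 and 7307.5 over all cells. A low CPM there is a low part of a large total and need not mean few molecules per cell. Of 25 members 12 were lower and 0 higher, against 6.16% and 5.28% of all genes. Ifitm3 had 500.2 and 201 CPM, a log2 ratio of -1.31 (-1.43 to -1.20), and Oasl2 had 16.5 and 4.28 CPM, a log2 ratio of -1.91 (-2.80 to -1.18). Parp9, Parp12, Trim25, Dtx3l, Irf7, Irf9 and Stat2 counted as lower through the class median, with log2 ratios from -0.57 to -0.13. In enteroendocrine-like cells 7 members reached 50 UMIs, and 1 was lower and 0 higher, where 7.1% and 7.91% of all genes were. That member was Ifitm3, with 1557 and 150.4 CPM and a log2 ratio of -3.35 (-3.91 to -2.88). Lymphocyte-like cells numbered 16 in Tipe0-/-, and of 7 members 1 was lower and 2 higher, where 11.8% and 12.4% of all genes were. The higher ones were Irf8 (159.7 and 246 CPM) and Samhd1 (82.98 and 117 CPM), with log2 ratios of 0.65 (-0.15 to 1.34) and 0.55 (-0.67 to 1.52), and both intervals include 0. In the unnamed clusters, 11 of 23 members were lower and 0 higher in the one led by Dtl (6.26% and 6.05% of all genes), and 6 of 16 were lower and 1 higher in the one led by Akr1c19 (8.07% and 7.7%). The higher one was Ifih1, with 29.3 and 45.2 CPM and a log2 ratio of 0.63 (-0.24 to 1.47), an interval that includes 0.

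**Figure D3:**
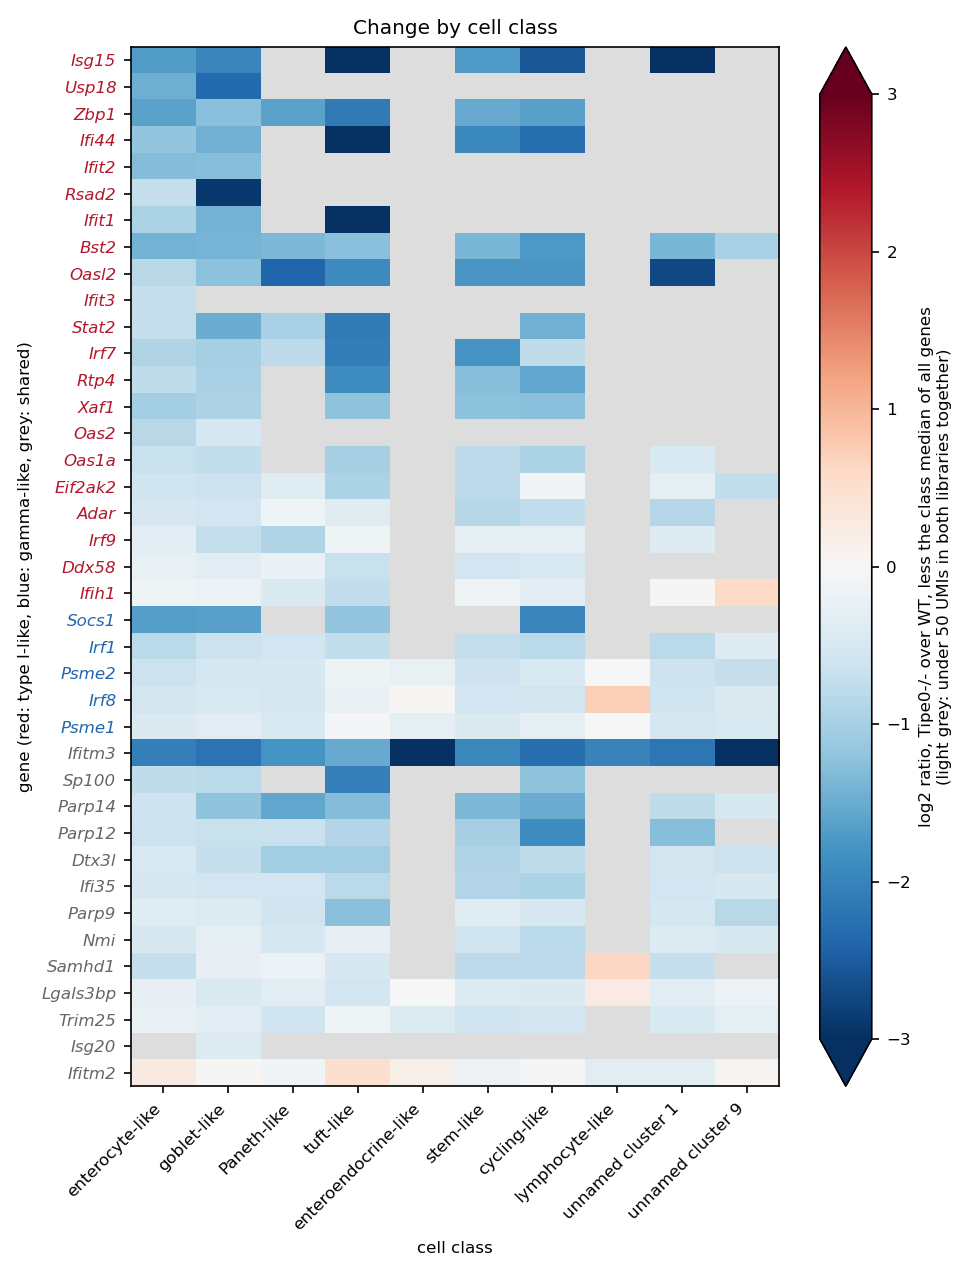
Each tile is the log2 ratio of a member (rows, grouped by signature) in a class or unnamed cluster (columns), less the median of all genes in that class, with light grey where fewer than 50 UMIs were counted. Ifitm3 is blue in every column, many of the deepest tiles lie in the tuft-like column, and Ifitm2, Psme1 and Lgals3bp stay pale.

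The lower levels were seen in the number of cells with a transcript as well as in summed UMIs. Each cell was thinned to 3000 UMIs, a depth that every cell reached. At that depth Isg15 was found in 16.1% (14.9 to 17.4%) of WT and 6.03% (5.03 to 7.16%) of Tipe0-/- cells, and Ifitm3 in 48.6% (46.9 to 50.3%) of WT and 25.8% (23.9 to 27.8%) of Tipe0-/- cells. Ifitm2 was found in 45.2% (43.5 to 46.9%) of WT and 51.6% (49.4 to 53.8%) of Tipe0-/- cells. Cells with UMIs of at least 3 type I-like genes made up 28.1% (26.6 to 29.6%) of WT and 12.3% (10.9 to 13.8%) of Tipe0-/- cells. This share was highest in enterocyte-like cells, at 57.9% (54.7 to 61.1%) of WT and 35.8% (31.5 to 40.4%) of Tipe0-/- cells, and lower in Tipe0-/- in every class shown. In goblet-like cells it was 23.8% (20.8 to 27.1%) of WT and 10.6% (8.09 to 13.6%) of Tipe0-/- cells. In tuft-like cells it was 38.1% (30.4 to 46.2%) of WT and 7.69% (2.14 to 18.5%) of Tipe0-/- cells, and in stem-like cells 17.1% (12.97 to 21.8%) of WT and 2.39% (0.882 to 5.13%) of Tipe0-/- cells. Paneth-like cells, thinned from medians of 20960.5 and 26111 UMIs, gave the lowest share, with 9 WT cells and 0 of 139 Tipe0-/- cells. That 0 allows a share of up to 2.16% by a floor of 3 counts, or up to 2.62% by the exact interval used for the other shares. No class is known to lack these genes, so the part of free RNA in these shares was not tested. Before thinning, the shares over all cells were 63.8% and 41.8%. The intervals of these shares count cells within each pooled library and do not cover the spread between mice.

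**Figure D4:**
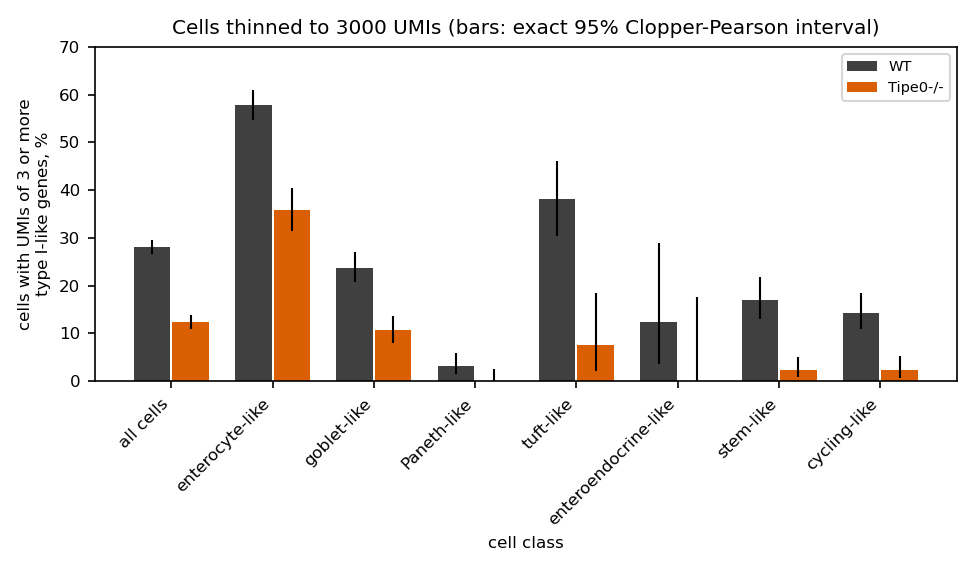
Bars give the percent of cells with UMIs of 3 or more type I-like genes after thinning each cell to 3000 UMIs, with exact 95% Clopper-Pearson intervals, for all cells and 7 classes of the WT and Tipe0-/- libraries. The share is 28.1% in WT and 12.3% in Tipe0-/- over all cells, and it is lower in Tipe0-/- in every class shown. All cells of a genotype come from the same pooled library. The intervals therefore cover the counting of cells and not the spread between mice, and their separation is no test between genotypes.

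The rest of the pathway was read from lists of ligands, receptors, kinases, regulators and further interferon gamma targets. Of 8 interferon genes, 7 had no UMI in either library and Ifng had 8 UMIs in WT and 1 in Tipe0-/-. All 6 receptor genes stayed within 1.5-fold, with a median log2 ratio of 0.10. Ifngr1 had 64.02 and 79.3 CPM and Ifngr2 65.3 and 61.9 CPM in WT and Tipe0-/-, while Ifnlr1, the receptor subunit specific to type III interferon, had 3.41 and 3.22 CPM. The kinases Jak1, Jak2 and Tyk2 also stayed within 1.5-fold, with log2 ratios from -0.12 to 0.08. Of 4 further regulators, Socs3 and the phosphatase Ptpn6 were lower (log2 ratios of -0.54 and -0.54), and Pias1 and Ptpn2 stayed within 1.5-fold.

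Of 22 interferon gamma targets outside the member list, 19 were lower and 0 higher, against 6.9% and 4.23% of all genes. Their median log2 ratio was -1.13. Their summed level was 6331 CPM in WT and 3451 CPM in Tipe0-/-. Cd74, the MHC class II invariant chain, had 1600.3 and 664 CPM and a log2 ratio of -1.27 (-1.29 to -1.24). Psmb8, a catalytic subunit of the immunoproteasome, had 316 and 131 CPM and a log2 ratio of -1.27 (-1.33 to -1.21). Iigp1, a GTPase that attacks the vacuoles of parasites, had 11.6 and 3.01 CPM and a log2 ratio of -1.94 (-2.32 to -1.58).

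Among the markers of other cells, those of T cells and B cells were lower along with the members. All 7 T cell genes with a row in the matrices were lower in Tipe0-/-, with a summed level of 99.95 CPM in WT and 18.1 CPM in Tipe0-/- and with none at 0. Lymphocyte-like cells made up 2.70% of WT and 0.798% of Tipe0-/- cells. The 4 B cell genes that reached 50 UMIs were also lower, and the 5 with a row summed to 16.2 and 8.33 CPM. Of 3 myeloid genes tested, 1 was higher (Lyz2) and 0 lower. The 9 listed summed to 19.9 and 17.6 CPM, mostly Cd14 (14.6 and 11.6 CPM). The others were below the UMI minimum. In WT and Tipe0-/-, Itgax had 26 and 5 UMIs, Aif1 14 and 1, Csf1r 5 and 1 and C1qc 3 and 1. The macrophage markers C1qa and C1qb had 4 and 5 UMIs in WT and 0 in Tipe0-/-. Genes listed for plasmacytoid dendritic cells summed to 107.9 and 112.4 CPM, mostly Klk1 and Tcf4, which stayed within 1.5-fold. Their sum was 277 and 234 CPM in goblet-like cells and 207 and 270 CPM in lymphocyte-like cells. Klk1 was a leading gene of the goblet-like cluster led by Sval1. Ccr9, the other of the 3 tested, was lower (73 and 17 UMIs). The defining marker Siglech had 21 and 6 UMIs, and Cox6a2 had 15 and 3. Endothelial genes (0.813 and 0.670 CPM) and fibroblast genes (2.65 and 1.72 CPM) were near 0. Without the lymphocyte-like cells 28 of 40 members were lower, against 6.21% of all genes. Without the cells holding any T cell UMI (508 of WT and 101 of Tipe0-/-) 27 were lower and 0 higher. Of all genes 5.94% and 4.15% then were, and the median log2 ratio of the members was -0.76. Genes of the dissociation response had a median log2 ratio of 0.28, with 207.6 CPM in WT and 235.7 CPM in Tipe0-/- summed, and mitochondrial genes took 6.59% and 8.56% of UMIs. The part of these markers in the lower ISG levels was otherwise not tested.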

How the data were processed

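The deposited files held UMI counts per gene and barcode, which the authors made with Cell Ranger on mm10 from several pooled mice per genotype and left unnormalized. They were summed over each library or class (Python 3.11.15, pandas 2.3.3, scipy 1.17.1), and every deposited barcode was used. No test was made, since each genotype had 1 library. Calls were limited to genes whose UMIs of WT and Tipe0-/- together reached 50. Clusters were found in R 4.3.3 with Seurat 5.3.0 (14 principal components, resolution 0.8, 523 variable genes). The members, the pathway lists and 117 genes of the study's genotype comparison were left out of the variable genes, and classes were named from marker lists. Scrublet, through Scanpy 1.11.5, called 15 and 3 cells as doublets, too few to have worked, so no cell was removed. As an alternative, cells with scores above the cut for the top 5% of their library were left out (149 in WT and 79 in Tipe0-/-).

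The members, signatures, marker lists and thresholds were chosen with earlier results of these data known. Members with at least 50 UMIs were named with full values, and in a class those past 1.5-fold were eligible to be named along with the class of highest level. Genes compared within 1.5-fold, such as Ifitm2, were named for contrast after their values were seen. Gene positions are from GENCODE and promoter letters from RefSeq, both on GRCm38. The calculations were tested on simulated data. The result of 1 gene of the pathway lists is not reported here.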

Additional observations from a re-analysis of the deposited data

How the results depend on the processing

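No paired analysis was possible because each genotype has 1 library, and no library could be left out. In 11 alternatives to the totals, cells and UMI minimum, 0 members were higher and all but 1 member, Ifitm2, had a log2 ratio below 0. Leaving genes out of the totals and scaling by the median ratio move every gene by the same amount, so calls could not change there. Changing the UMI minimum leaves the ratio of each member as it was. Weighting the cell classes to the same makeup in both libraries moved 6 members outside their counting intervals. Among them were Isg15 (-1.78), Ifit1 (-0.96), Irf7 (-0.86) and Ifitm3 (-1.93). Taking the mean over cells moved 12, among them Rsad2 (-0.75), Ifit2 (-1.05) and Psme2 (-0.51). The median of the gamma-like genes rests on 5 members and moved from -0.41 to -0.47 with totals without mitochondrial and the 20 most abundant genes, -0.56 with scaling by the median ratio over genes, -0.51 as the mean over cells, -0.50 with no UMI minimum and -0.45 without cells holding a T cell UMI, an alternative chosen after seeing the data along with leaving out the lymphocyte-like cells. Scaling by the median ratio sets the median of all genes to 0 in place of 0.15, and moved the shared median to -0.64. At 2-fold, 1 gamma-like and 4 shared members were lower. Without thinning, 63.8% of WT and 41.8% of Tipe0-/- cells held 3 or more type I-like genes. With no UMI minimum 17.6% of all genes were lower and 11.7% higher. The causes of these moves were not tested beyond their construction. The medians of the epithelial classes stayed below 0 with 2000 variable genes by variance stabilization and at resolution 0.4. The enterocyte-like median was then -0.38 and -0.42. In both of these clusterings, a cluster with Slc40a1 among its leading genes was left unnamed and did not count as enterocyte-like. At resolution 0.4 enteroendocrine-like cells formed no cluster. A single library per genotype limits every value here: intervals cover counting error only, and genotype, library, pool of mice and substrain cannot be told apart.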
